A study of Mus musculus with 12 samples.

Results

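The miR-30 family is a group of microRNAs whose 5p arms share the bases with which they recognise their targets. Its 7 members were taken by name among the 616 mature microRNAs of the deposited table: miR-30a-5p, miR-30b-5p, miR-30c-5p, miR-30d-5p and miR-30e-5p from the 5p arm of their hairpins, and miR-30a-3p and miR-30e-3p from the 3p arm. They were measured in 12 small-RNA libraries of CD1 mouse embryonic gonads, 1 for each combination of cell fraction, sex and stage. The fractions were primordial germ cells (PGC), the precursors of eggs and sperm, and gonadal somatic cells (SC), from female and male embryos on embryonic days 11.5, 12.5 and 13.5 (E11.5, E12.5, E13.5). Per the labels' protocols, about 80 gonads were pooled per group after sexing by PCR and removal of the mesonephros, and cells were separated with anti-CD15 paramagnetic beads. The protocols give a PGC enrichment of 93 to 96% and a somatic purity over 90%. No genotype or agent was compared.

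A microRNA is cut from a hairpin whose 5p and 3p arms can each enter an Argonaute protein, which then represses mRNAs that pair with the seed, bases 2 to 8 of the microRNA. The 5p and 3p arms of a miR-30 hairpin carry different seeds and thus address different mRNAs. The family is abundant in kidney epithelium, where in the frog Xenopus it limits the transcription factor Lhx1 during kidney formation. In human cells miR-30a represses BECN1, a gene of autophagy, and in mice miR-30c lowers Mttp, which loads lipid onto lipoproteins in the liver.

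The sequences below show which members can pair with the same mRNAs and which can hardly be told apart as reads. They are the RefSeq mature sequences (GRCm38.p6), found for 5 of the 7 members, with the seed in capitals. miR-384-5p, the 1 other microRNA of the table with the seed of the 5p arms in that reference, is added for comparison.
miR-30a-5p: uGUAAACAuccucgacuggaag
miR-30e-5p: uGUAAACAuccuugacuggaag
miR-30c-5p: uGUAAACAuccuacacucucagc
miR-384-5p: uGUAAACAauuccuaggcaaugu
miR-30a-3p: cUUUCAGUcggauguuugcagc
miR-30e-3p: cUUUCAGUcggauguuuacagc

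The 5p sequences share the seed GUAAACA and the 3p sequences of miR-30a and miR-30e share the seed UUUCAGU. Counted from 1 at the 5′ end, miR-30a-5p and miR-30e-5p differed by the single substitution C13U. Their 3p arms differed by the single substitution G18A. miR-30a-5p and miR-30c-5p differed at 5 of the 22 positions compared. How mismatches were treated when reads were assigned is not given in the sources used here, so the split of reads between miR-30a and miR-30e is uncertain for either arm. The hairpins of this near-identical pair, with the mature arms in capitals, show the loop that separates the arms.
Mir30a: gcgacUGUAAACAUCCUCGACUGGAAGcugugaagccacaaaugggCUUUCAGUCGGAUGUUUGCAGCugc
Mir30e: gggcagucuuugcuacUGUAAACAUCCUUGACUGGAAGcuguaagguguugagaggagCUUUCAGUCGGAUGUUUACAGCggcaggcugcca

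The 6 hairpins lie in 3 pairs on GRCm38.p6. Mir30a (chr1:23272269-23272339, plus strand) is 19361 bp from Mir30c-2 (chr1:23291701-23291784). Mir30c-1 (chr4:120769534-120769622) is 2983 bp from Mir30e (chr4:120772606-120772697, minus strand), and both lie within Nfyc, a gene for a subunit of the CCAAT-binding factor NF-Y. In GENCODE vM39 they fall in an intron of Nfyc on its own strand. Mir30b (chr15:68337415-68337510) is 3697 bp from Mir30d (chr15:68341208-68341289). In the same annotation Mir30a, Mir30c-2, Mir30b and Mir30d overlap exons of lncRNA genes. miR-30c-5p is made from both Mir30c-1 and Mir30c-2, and its reads cannot be divided between them.

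Each deposited value is a read count divided by 1 size factor per library, and the reads taken back from these values numbered 166804 for the shallowest library (PGC female E12.5) and 1768825 for the deepest (SC female E11.5). Levels are given as reads per 1000000 microRNA reads (RPM), because the deposited size factors, 0.614 to 1.58, did not follow these totals. Factors recomputed as medians of ratios over the 285 microRNAs found in every library ran from 0.236 to 2.54. The library labelled PGC female E11.5 stood apart from its label: its 12 germ cell markers of the miR-290 to miR-295 cluster summed to 2329 RPM, against 70429 to 140986 RPM in the other 5 PGC libraries and 244 to 5994 RPM in SC. Its 7 somatic markers summed to 84094 RPM and those of PGC male E11.5 to 58051 RPM, against 9206 to 29587 RPM in later PGC and 87869 to 114434 RPM in SC. Both PGC E12.5 libraries were shallow, at 166804 and 184174 reads. With 1 library per condition, a p-value reflects the spread among these libraries alone, which may be partly technical.

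The family took a similar share of the microRNA reads in both fractions, 6.03% ± 2.09 in PGC and 6.01% ± 3.75 in SC (SD, n = 6 each). In PGC the share was 3.37% and 6.37% on E11.5 (female, then male), 4.08% and 5.78% on E12.5, and 8.83% and 7.75% on E13.5. In SC it was 5.93% and 5.26% on E11.5, 3.36% and 3.66% on E12.5, and 4.46% and 13.4% on E13.5. SC male E13.5 was thus the highest library and the SC female library of that day lay among the lower ones. The exact Clopper-Pearson 95% interval was widest in PGC male E12.5, at 5.67 to 5.89%, and covers counting error only.

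**Figure D1:**
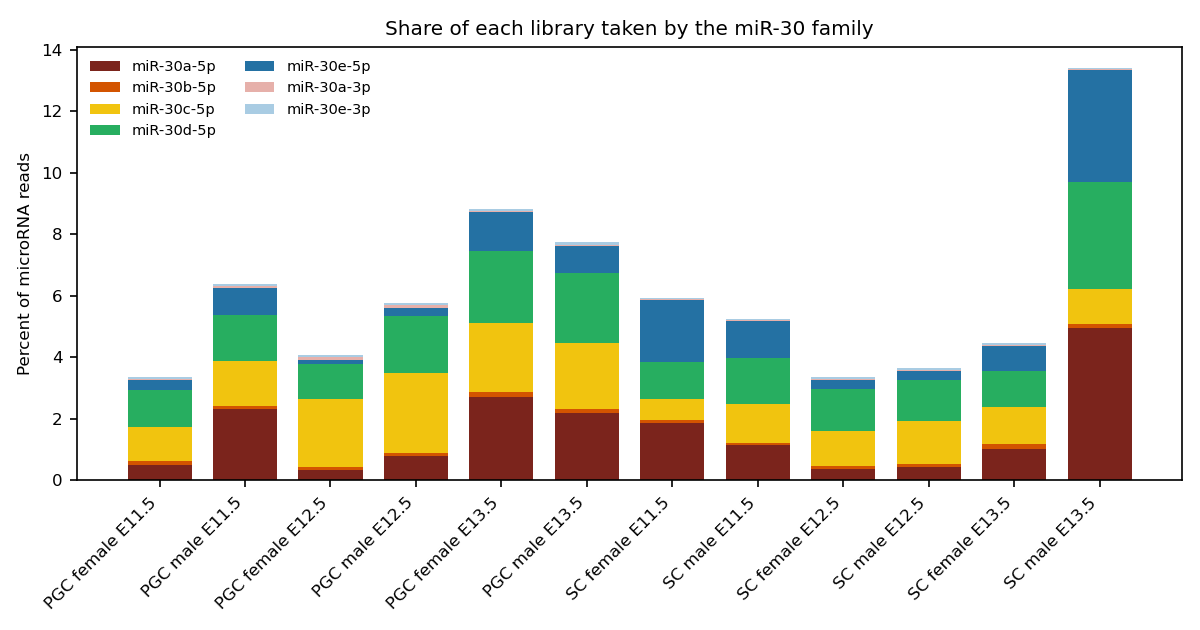
Stacked bars give the percent of each library's microRNA reads taken by each of the 7 members, for 12 libraries with 1 bar each. The total runs from 3.36% in SC female E12.5 to 13.4% in SC male E13.5, and miR-30a-5p, miR-30c-5p, miR-30d-5p and miR-30e-5p make up most of each bar.

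In mean RPM over the 12 libraries the order was miR-30d-5p (16989 ± 6941), miR-30a-5p (15550 ± 13565), miR-30c-5p (15495 ± 5939), miR-30e-5p (9987 ± 10022), miR-30b-5p (1114 ± 290.9), miR-30e-3p (582 ± 159) and miR-30a-3p (507 ± 298; SD, n = 12 for each). The first 3 lay within each other's spread, as did miR-30e-5p beside them and the 3p arms beside each other. Members that differed little in mean differed in how much they moved. Between the lowest and the highest library, log2 RPM spanned 4.95 for miR-30e-5p and 3.86 for miR-30a-5p. It spanned 2.44 for miR-30a-3p, 1.93 for miR-30c-5p, 1.60 for miR-30d-5p, 1.37 for miR-30e-3p and 1.23 for miR-30b-5p, and the median span of the 251 microRNAs found in every library with a mean of at least 100 RPM was 3.01.

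miR-30a-5p, the second most abundant microRNA of SC male E13.5, was at 5151 RPM (female) and 23249 RPM (male) in PGC at E11.5, 3423 and 7857 RPM at E12.5, and 26956 and 21985 RPM at E13.5. In SC it was at 18590 and 11372 RPM at E11.5, 3842 and 4313 RPM at E12.5, and 10242 and 49618 RPM at E13.5. The fractions overlapped. In SC both E12.5 libraries were the lowest, and in PGC the library labelled PGC female E11.5 lay between them.

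miR-30e-5p, its near-identical partner from the Nfyc intron, was at 3258 and 8932 RPM in PGC at E11.5, 1181 and 2432 RPM at E12.5, and 12574 and 8527 RPM at E13.5 (female, then male throughout). Somatic cells had it at 20321 and 12205 RPM at E11.5, 3099 and 2763 RPM at E12.5, and 8110 and 36446 RPM at E13.5. All 4 E12.5 libraries, at 1181 to 3099 RPM, lay below the other 8, at 3258 to 36446 RPM. This ordering was seen after the values were known and was not tested; 3.31% of the 513 microRNAs tested showed it, and miR-30a-5p did not.

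miR-30c-5p, the member made from 2 hairpins, was at 11163 and 14408 RPM in PGC at E11.5, 21978 and 25965 RPM at E12.5, and 22449 and 21606 RPM at E13.5. The SC libraries had 6815 and 12614 RPM at E11.5, 11316 and 14052 RPM at E12.5, and 11964 and 11611 RPM at E13.5. Every PGC library lay above every SC library except the one labelled PGC female E11.5.

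miR-30d-5p, from the chromosome 15 pair, was at 12022 and 14994 RPM in PGC at E11.5, 11463 and 18711 RPM at E12.5, and 23383 and 22763 RPM at E13.5. SC held 12087 and 14922 RPM at E11.5, 13556 and 13335 RPM at E12.5, and 11915 and 34720 RPM at E13.5. The fractions overlapped, and SC male E13.5 was again the highest library. miR-30b-5p, its neighbour on the chromosome, ran from 1013 to 1790 RPM in PGC and from 762 to 1579 RPM in SC, with the highest library of each fraction in females at E13.5. It was the steadiest member.

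The 3p arms were the least abundant members in mean RPM, at ranks 102 to 214 (miR-30a-3p) and 110 to 191 (miR-30e-3p) within the libraries. miR-30a-3p was at 465 and 543 RPM in PGC at E11.5, 1193 and 939 RPM at E12.5, and 588 and 602 RPM at E13.5. SC libraries had it at 219 and 296 RPM at E11.5, 314 and 391 RPM at E12.5, and 301 and 227 RPM at E13.5, so the fractions did not overlap. miR-30e-3p ran from 566 to 849 RPM in PGC and from 328 to 719 RPM in SC, and the fractions overlapped.

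**Figure D2:**
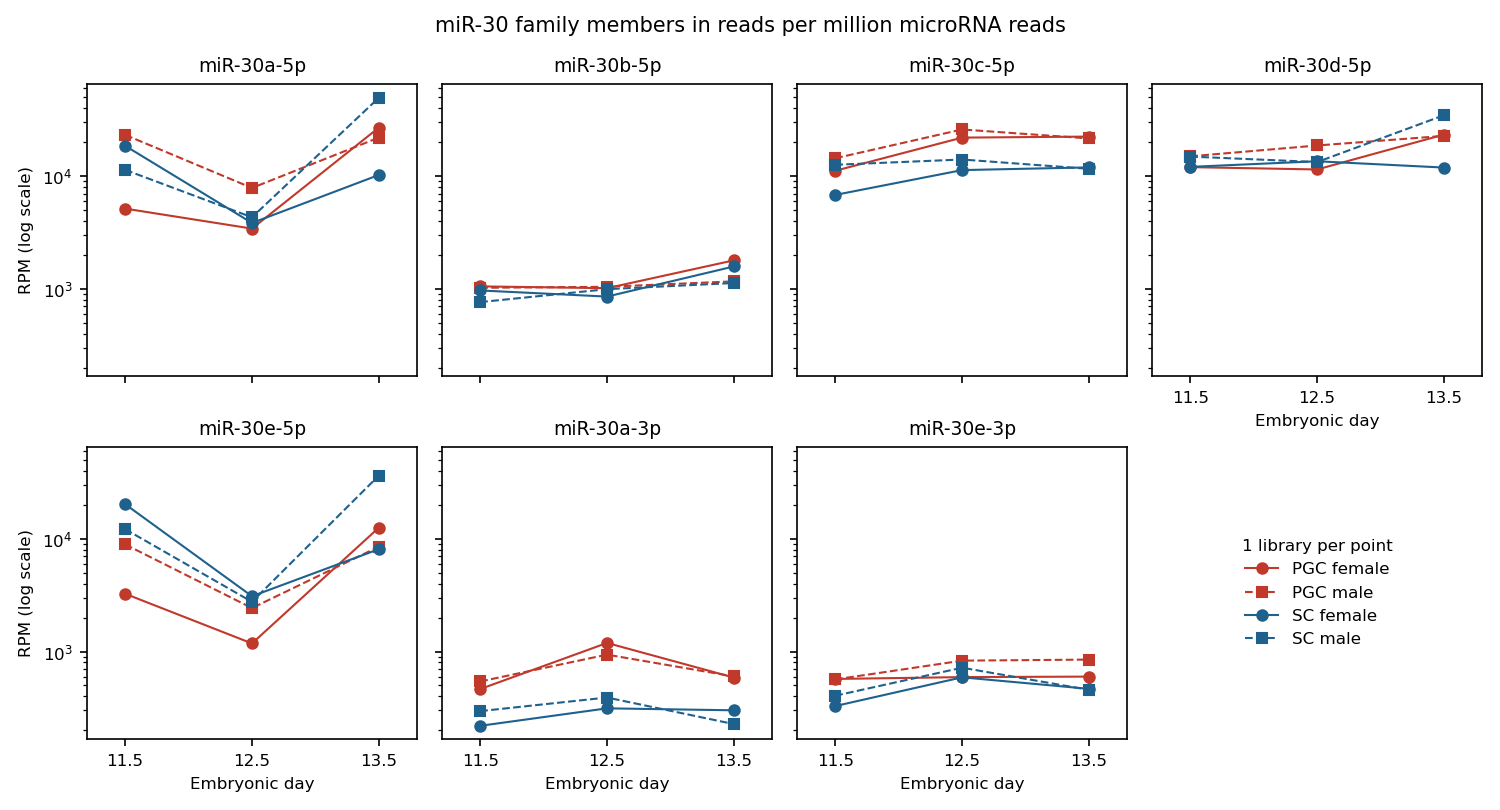
Each panel plots 1 member in RPM on a log axis against embryonic day, with 1 library per point, PGC in red, SC in blue, circles for female and squares for male. miR-30a-5p and miR-30e-5p dip at E12.5, miR-30b-5p stays between 762 and 1790 RPM, and the red miR-30a-3p points lie above the blue ones.

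At equal totals, miR-30a-3p and miR-30c-5p were called higher in PGC than in SC, and no member was called lower. miR-30a-3p was higher by a log2 difference of 1.25 ± 0.31 (SE), a fold of 2.38, in 6 of 6 stage-by-sex pairs (limma, adjusted p = 0.0126). miR-30c-5p was higher by 0.76 ± 0.24, a fold of 1.69, also in 6 of 6 pairs (adjusted p = 0.0324); it did not pass after quantile normalization (0.56, adjusted p = 0.0828) or with no pair block (0.76, adjusted p = 0.0615). Thus 2 of 7 members were called higher and 0 lower, beside 13.5% of the 513 tested microRNAs called higher and 25.5% called lower. The median log2 difference was 0.18 over the members and -0.74 over all tested microRNAs.

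The other 5 members did not pass. miR-30e-5p had a log2 difference of -1.02 ± 0.41, with a 95% interval of -1.92 to -0.12. It was lower in PGC in 5 of 6 pairs (limma, unadjusted p = 0.0296, adjusted p = 0.0652). miR-30e-3p had 0.46 ± 0.29 (adjusted p = 0.215) and miR-30b-5p 0.18 ± 0.25 (adjusted p = 0.571), each higher in PGC in 6 of 6 pairs. miR-30d-5p had 0.10, with a 95% interval of -0.51 to 0.71, and miR-30a-5p 0.02, with an interval of -0.92 to 0.96. Equal levels between fractions were therefore not shown for either.

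On the deposited scale the directions turned for 6 of 7 members. miR-30e-5p kept its own, with a log2 difference of -3.25 ± 0.65 and lower values in PGC in 6 of 6 pairs (adjusted p = 0.000323). There 6 of 7 members were called lower in PGC and 0 higher, while 77.2% of all tested microRNAs were called lower and 7.02% higher. The median log2 difference was -2.05 over the members and -2.57 over all. miR-30c-5p had 2324 to 10021 deposited units in PGC against 8769 to 19632 in SC, a log2 difference of -1.47 (adjusted p = 0.0268). miR-30a-3p, with 126 to 418 units in PGC and 206 to 541 in SC, was the member that did not pass (-0.97, adjusted p = 0.142). Relative to the median of all microRNAs, all members but miR-30e-5p lay above it on either scale, and miR-30e-5p lay below it on both.

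With fewer libraries the calls of miR-30a-3p and miR-30c-5p were lost more readily than the size of their differences. Without both shallow PGC E12.5 libraries neither passed, with 1.08 for miR-30a-3p (adjusted p = 0.159) and 0.68 for miR-30c-5p (adjusted p = 0.218), while the calls over all 513 microRNAs went from 69 higher and 131 lower to 17 and 0. Without PGC male E12.5 alone, miR-30a-3p had 1.25 (adjusted p = 0.0537) and miR-30c-5p 0.73 (adjusted p = 0.108), and 47 and 39 of all microRNAs were called. Without its SC partner the adjusted p-values were 0.052 and 0.114. The differences were the same by design: with the pair as a block, leaving out either library removes the whole pair from the estimate. This holds for every omission given here, also that of both PGC E12.5 libraries. miR-30c-5p also missed the threshold with 0.72 without either female E12.5 library (adjusted p = 0.078 and 0.0803 without the PGC and the SC library), 0.73 without either female E13.5 library (0.101 and 0.104) and 0.73 without either male E13.5 library (0.0657 and 0.0677). miR-30e-5p passed as lower without PGC female E13.5 (-1.35, adjusted p = 0.0365) or SC female E13.5 (adjusted p = 0.0371). Without the library labelled PGC female E11.5, miR-30a-3p had 1.28 (adjusted p = 0.0109), miR-30c-5p 0.77 (adjusted p = 0.0294) and miR-30e-5p -0.70 (adjusted p = 0.184).

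Markers listed for other cells also differed between the fractions, and their part in these differences was not tested. All 6 kidney and mesonephros epithelium markers were in the table and summed to 10710 to 47713 RPM in PGC against 2071 to 9087 RPM in SC. Within PGC they summed to 10710 to 23908 RPM at E11.5 and to 33333 to 47713 RPM at E12.5 and E13.5. The germ cell markers rose over the same libraries, from 2329 to 70429 RPM at E11.5 to 96611 to 140986 RPM later. These 6 epithelial markers include 3 members of the miR-200 family, found in epithelia of many organs. Which cells of the PGC fraction held them was not tested. The 2 endothelial markers summed to 4669 to 51442 RPM in PGC and 16088 to 37105 RPM in SC, and the 5 erythroid markers to 65.2 to 1951 and 444 to 2454 RPM. The 3 muscle markers, miR-1a, miR-133a and miR-206, summed to 913 to 1229 RPM in PGC at E11.5 and to 131 to 1498 RPM in SC. In later PGC they were listed at 0 in both E12.5 libraries and in male E13.5, and summed to 55.8 RPM in female E13.5. The endothelial and erythroid markers split by stage as well, with 27782 to 51442 and 977 to 1951 RPM in PGC at E11.5 and 4669 to 11230 and 65.2 to 324 RPM in later PGC. In such pooled fractions fewer cells of a type and less RNA per cell cannot be told apart.

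**Figure D3:**
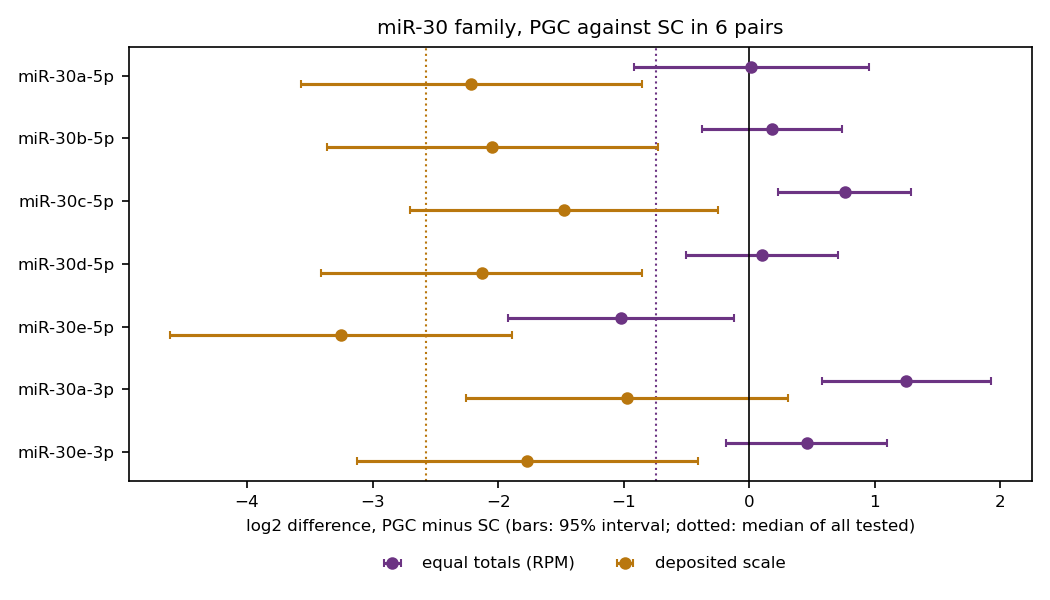
Points give the log2 difference of each member, PGC minus SC, over 6 pairs, with bars for the 95% interval, in RPM (purple) and on the deposited scale (ochre). Dotted lines mark the median of all 513 tested microRNAs, -0.74 and -2.57, and all but miR-30e-5p lie to the right of the line of their scale.

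Ratios of 2 members within a library are free of the scale, since size factors and totals cancel. In all, 6 such ratios were compared over the 6 pairs with an exact sign-flip permutation test (two-sided), whose smallest possible p is 0.03125. Even that p gave an adjusted p of 0.0938 over the 6 ratios for the leading ones, so none passed after adjustment. A single ratio could not have passed by itself, whatever its size.

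The ratio of miR-30a-5p to miR-30e-5p, which differ by 1 base, was higher in PGC in 6 of 6 pairs. In PGC it was 1.58 and 2.60 on E11.5 (female, then male), 2.89 and 3.23 on E12.5, and 2.14 and 2.58 on E13.5. In SC it was 0.915 and 0.932 on E11.5, 1.24 and 1.56 on E12.5, and 1.26 and 1.36 on E13.5. The fractions did not overlap, although the lowest PGC value, from the library labelled PGC female E11.5, nearly met the highest SC value. The mean log2 difference was 1.04 ± 0.11 (SE), a fold of 2.05 (exact permutation p = 0.03125, adjusted 0.0938), and it was 0.99 without both E11.5 pairs. While miR-30a-5p and miR-30e-5p each moved over a wide range across libraries, their ratio spanned 3.53-fold in all.

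The ratio of miR-30e-5p to miR-30c-5p, whose genes Mir30e and Mir30c-1 lie together in Nfyc, was lower in PGC in 6 of 6 pairs. It ran from 0.0539 to 0.620 in PGC and from 0.197 to 3.14 in SC, and the fractions overlapped. The mean log2 difference was -1.78 ± 0.53 (exact permutation p = 0.03125, adjusted 0.0938). The ratio of miR-30a-5p to miR-30c-5p ran from 0.156 to 1.61 in PGC and from 0.307 to 4.27 in SC (log2 difference -0.74 ± 0.57, exact permutation p = 0.281, adjusted 0.338). The ratio of miR-30d-5p to miR-30b-5p, neighbours on chromosome 15, differed by -0.08 ± 0.23 (exact permutation p = 0.781, adjusted 0.781) and was between 7.54 and 30.8 in all libraries.

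Among these ratios, that of the miR-30a arms had the widest span over libraries. In PGC miR-30a-5p had 11.1 and 42.7 reads for each miR-30a-3p read on E11.5, 2.86 and 8.34 on E12.5, and 45.8 and 36.5 on E13.5. In SC it had 84.6 and 38.3 on E11.5, 12.2 and 11.0 on E12.5, and 33.98 and 218 on E13.5. The 4 E12.5 libraries thus held 4 of the 5 lowest arm ratios, with the library labelled PGC female E11.5 among them. The whole span was 76.1-fold, the widest of the 27 hairpins with at least 20 reads of each arm in every library, whose median span was 5.12-fold.

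For miR-30e the lowest arm ratio was 1.98, in PGC female E12.5, and the highest 79.6, in SC male E13.5, a 40.1-fold span that ranked 4 among the same hairpins. Summing both near-identical hairpins, so that the split between them no longer counts, gave 2.58 to 126 5p reads per 3p read in the same pair of libraries. Between fractions, the miR-30e arm ratio had a log2 difference of -1.48 ± 0.60 (exact permutation p = 0.0625, adjusted 0.125) and the miR-30a arm ratio -1.24 ± 0.60 (exact permutation p = 0.188, adjusted 0.281). The arms of miR-30c spanned 2.41-fold and those of miR-30b 3.18-fold. Over 25 other hairpins, the median centred log2 arm ratio was -1.06 in PGC female E12.5 and -0.31 in PGC male E12.5, against -0.07 to 0.31 in the other 10 libraries; the part of this shift in the miR-30 ratios was not tested.

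**Figure D4:**
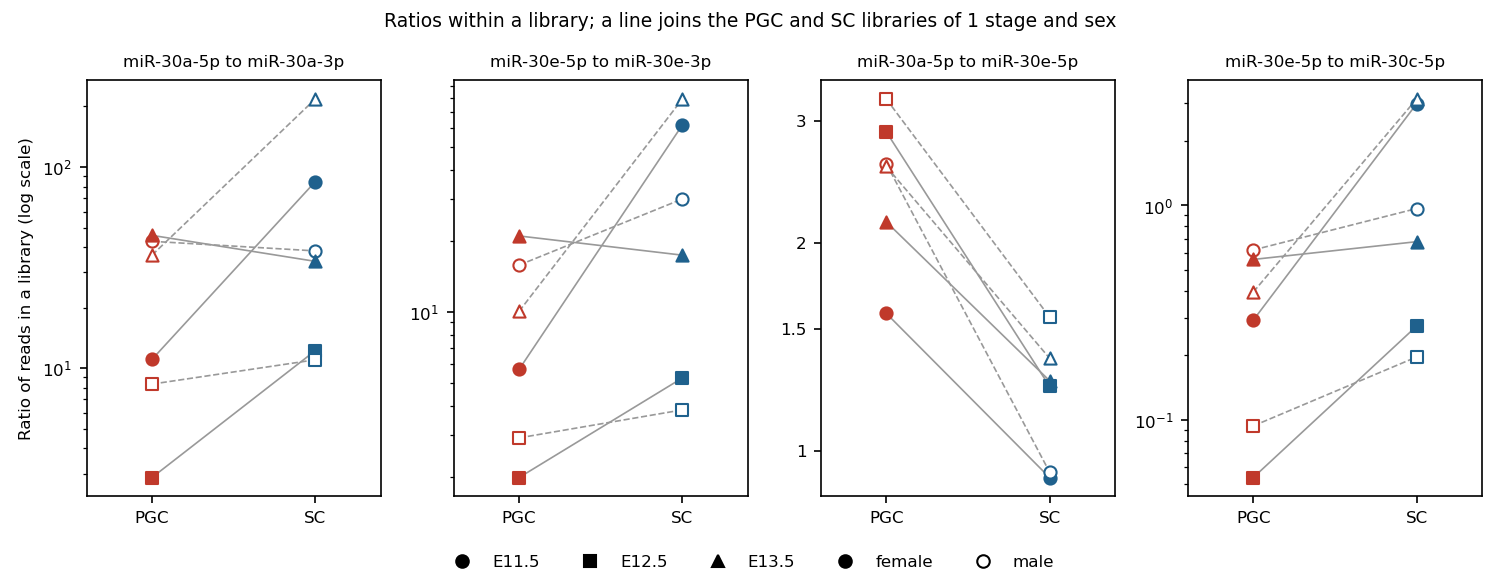
Shown are 4 ratios of reads within a library on log axes, PGC on the left and SC on the right of each panel, with a line for each of the 6 stage-by-sex pairs. The miR-30a-5p to miR-30e-5p lines all fall from PGC to SC, the miR-30e-5p to miR-30c-5p lines all climb, and the arm ratios are lowest at E12.5 (squares).

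Between E11.5 and E13.5 no member passed in either fraction at equal totals or on the deposited scale. In PGC, miR-30c-5p came nearest, with a log2 difference of 0.80 ± 0.28 (E13.5 minus E11.5, limma unadjusted p = 0.0254, adjusted p = 0.0784). Stage and somatic signal went together in the PGC libraries. The 7 somatic markers summed to 84094 and 58051 RPM at E11.5 (female, then male) and to 29587 and 9206 RPM at E13.5. Their part in the stage changes was not tested. Of all tested microRNAs, 7.41% were called higher and 21.4% lower in PGC, and on the deposited scale 7.8% and 25.1%, where again 0 of 7 members passed. The median log2 difference was 0.78 over the members and -0.41 over all. Of the 7 members, 1 was under an unadjusted p of 0.05 in limma at equal totals, and voom in limma on the reads called 0. With recomputed size factors miR-30c-5p was called higher (1.11, limma adjusted p = 0.0179), beside 51 higher and 100 lower of all 513 microRNAs. Without the library labelled PGC female E11.5, miR-30c-5p had 0.66 (adjusted p = 0.381).

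In SC, 0 of 7 members passed between E11.5 and E13.5 on either scale in limma or in voom, and 0 were under an unadjusted p of 0.05. Here 6.63% of all microRNAs were called higher and 1.36% lower, and on the deposited scale 8.38% and 2.53%. The difference of the stage change between PGC and SC, tested itself, was called for 0 of 7 members; 0% of all microRNAs were called at equal totals, and 0.78% were called lower on the deposited scale. For miR-30e-5p that difference was 0.81 with a 95% interval of -1.67 to 3.30, so a sizeable difference in either direction was not detectable with these libraries.

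Between the sexes, 0 of 7 members passed in limma or in voom in PGC or in SC, and 0 were under an unadjusted p of 0.05. At equal totals 0% of all microRNAs were called, and on the deposited scale 0.39% were called higher in female PGC and 1.17% in female SC. In SC at E13.5 the male library had 49618 RPM of miR-30a-5p against 10242 in the female, 36446 against 8110 RPM of miR-30e-5p and 34720 against 11915 RPM of miR-30d-5p, while miR-30c-5p was at 11611 against 11964 RPM. In PGC the widest gap was at E11.5, with 23249 RPM of miR-30a-5p in the male and 5151 RPM in the library labelled PGC female E11.5. In SC at E11.5 the order was the reverse, with 18590 RPM in the female and 11372 RPM in the male. These values have no replicate.

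Of the 4 other arms of the same hairpins, miR-30c-2-3p was the most abundant, at 246 to 538 RPM in PGC and 151 to 249 RPM in SC. It was higher in PGC at equal totals in 6 of 6 pairs (log2 difference 1.02 ± 0.34, limma adjusted p = 0.0378) and on the deposited scale had -1.21 (adjusted p = 0.0802). miR-30b-3p was at 30.0 to 116 RPM over all libraries, miR-30c-1-3p at 0 to 46.2 RPM and miR-30d-3p at 0 to 86.0 RPM, and none of these passed between fractions at equal totals. miR-384-5p, which has the seed of the 5p arms and lies on the X chromosome, was listed at 0, under 5 reads, in all 4 PGC libraries of E12.5 and E13.5 and in SC male E13.5. In the other 7 libraries it was at 36.0 to 65.0 RPM, so it added little to the reads with this seed.

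Across the 12 libraries, as a description of log2 RPM values that share library and depth, miR-30a-5p moved with miR-30e-5p (r = 0.90) and miR-30d-5p (r = 0.74). miR-30c-5p moved with the 3p arms miR-30a-3p (r = 0.86) and miR-30e-3p (r = 0.79) and not with miR-30a-5p (r = -0.07). miR-30a-5p and its own 3p arm had r = -0.33. The 5 microRNAs outside the family most like the mean of its 5p arms, among 285 with a mean of at least 100 RPM, were miR-465a-5p (r = 0.78, with 6 libraries at 0), miR-103-3p (0.76), miR-185-5p (0.76), miR-17-3p (0.75) and miR-148a-3p (0.75). That mean, which itself contains both, followed miR-30a-5p (r = 0.98) and hardly miR-30c-5p (r = 0.04), so part of each r is built in.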

How the data were processed

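Per the submitters' processing notes, FastQC, Trim Galore, Bowtie 1.1.2 with GRCm38, and DESeq were used; how reads were counted, and on which microRNA annotation, is not given in the sources used here. In the table, the deposited signal values are counts that the authors divided by 1 size factor per library, as the values show. All of them (100%) were whole multiples, at a tolerance of 1e-06, of the smallest value of their library divided by 5, so reads were taken back from them; a value of 0 stands for under 5 reads, or 2.83 to 29.98 RPM. RPM was computed over all microRNA reads of a library. Of the 616 microRNAs, the 513 with a mean deposited value of at least 5, all 7 members among them, were tested as log2(RPM + 1) with limma 3.58.1 (R 4.3.3, moderated test with trend, Benjamini-Hochberg over all 513, threshold 0.05), in 6 comparisons. Adding 1 RPM shrinks the fold changes of low microRNAs where both libraries hold reads. Where a library is listed at 0, the difference can instead be overstated, because 0 enters the fit for any level under 5 reads. For miR-30c-1-3p in females at E12.5, 0 in PGC (under 29.98 RPM) against 24.1 RPM in SC gave -4.65. No member was listed at 0 in any library. Between fractions, the middle value over the 513 microRNAs was -0.74 with 1 RPM added and -0.50 with 10 RPM.

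Fractions were compared with the stage-by-sex pair as a block (5 residual degrees of freedom); whether a pair shares its pool of gonads is not stated in the labels. Stage and sex were additive terms within each fraction in 1 fit of 12 libraries (4 residual degrees of freedom), so each p-value borrows its spread from other conditions. Ratios of reads had 0.5 reads added and were tested with SciPy 1.17.1 and Python 3.11.15. The fits were tested on simulated data. A planned count model was not run, because the values were deposited in normalized form, although it could have used the reads taken back from them. Voom in limma was run on those reads instead. All 7 members are named, and others by correlation, shared hairpin or shared seed. The members, markers and lists were chosen with earlier results of these data known. Without molecular identifiers, reads amplified by PCR are not separate molecules, so intervals cover counting error only.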

Additional observations from a re-analysis of the deposited data

Results flagged for a closer look

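Within each fraction, 28 sets of 6 libraries were searched for a library far from the other 5 (Dixon's test of the gap over the range, at 95%). Chance flags about 1 in 20 sets if the values are normally distributed. The 6 libraries differ in stage and sex. RPM, ratios and percents were tested without logs, which favours flags of high values. In all, 5 values stood apart, each of them the highest of its set. SC male E13.5 held 4 of them: miR-30a-5p at 49618 RPM (next library 18590), miR-30d-5p at 34720 RPM (next 14922), a ratio of miR-30a-5p to miR-30a-3p of 217.9 (next 84.6), and a family share of 13.42% (next 5.93%). The ratio and the share contain the miR-30a-5p reads, so these 4 flags are not separate signs. The fifth was miR-30b-5p in PGC female E13.5, at 1790 RPM (next 1165). Without the pair of male E13.5 libraries, a choice made after seeing these values, miR-30a-5p had a log2 difference between PGC and SC of 0.25 (limma, adjusted p = 0.664) and miR-30d-5p of 0.24 (adjusted p = 0.503).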

How the results depend on the processing

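Between PGC and SC, the deposited values reversed 6 of 7 members against equal totals, with log2 differences of -2.21 (miR-30a-5p), -2.05 (miR-30b-5p), -1.47 (miR-30c-5p), -2.13 (miR-30d-5p), -0.97 (miR-30a-3p, not called) and -1.77 (miR-30e-3p); miR-30e-5p stayed lower (-3.25). On them 0 members were called higher and 6 lower, all but miR-30a-3p. For stage in PGC the deposited values turned miR-30b-5p (-0.14), miR-30a-3p (-0.37) and miR-30e-3p (-0.29). Members called higher in PGC numbered 1 after quantile normalization (all 513 microRNAs: 77 higher, 96 lower, against 69 and 131), 1 with no pair block (44, 51), 1 without the male E13.5 pair (52, 51) and 0 without both PGC E12.5 libraries (17, 0). They were 2 in voom on the reads, with recomputed size factors, with no filter and with 10 RPM added. Recomputed factors called 1 member, miR-30c-5p, higher with stage in PGC (51 higher and 100 lower of all, against 38 and 110). miR-30a-5p, near 0 between fractions, turned to -0.035 in voom and -0.15 without both PGC E12.5 libraries. Leaving out 1 library at a time, which removes its pair from the estimate, gave 0 to 2 members called higher and 0 to 1 called lower in PGC (47 to 76 and 37 to 162 of all). The log2 differences were then -0.26 to 0.39 for miR-30a-5p and -0.073 to 0.24 for miR-30d-5p. Where no cause is named, the cause was not tested. Voom, recomputed factors, omission of the male E13.5 pair and, for ratios alone, of both E11.5 pairs were chosen after seeing the data; the planned count model was not run.

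The ratio of miR-30e-5p to miR-30c-5p (-1.78) had p = 0.0823 when libraries were permuted without pairs (exact permutation test), and that of miR-30a-5p to miR-30e-5p had p = 0.00216. The ratio of miR-30d-5p to miR-30b-5p turned to 0.014 without both E11.5 pairs and ran from -0.26 to 0.034 with 1 pair left out. Without the 10 most abundant other microRNAs the mean family share was 9.15% in PGC and 9.45% in SC. Depth limits the ratios in PGC female E12.5, with 199 reads of miR-30a-3p, 99 of miR-30e-3p and 5 of miR-30b-3p.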
